A study of Gallus gallus with 8 samples.

Results

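The genes described here encode the subunits of the 4 enzyme complexes of the mitochondrial respiratory chain and of ATP synthase, which is counted as complex V. They were chosen by name. Every gene of the deposited table was taken whose symbol is that of a NADH dehydrogenase subunit (NDUF followed by A, B, C, S or V), a succinate dehydrogenase subunit (SDH), a ubiquinol-cytochrome c reductase subunit (UQCR), a cytochrome c oxidase subunit (COX4 to COX8) or an ATP synthase subunit (ATP5). This gave 53 of 14642 genes, of which 26 belong by name to complex I, 3 to complex II, 7 to complex III, 6 to complex IV and 11 to complex V. RNA-Seq was measured in dorsal skin of chicken embryos, which had been separated into mesenchyme and epithelium, with 2 libraries in each of 4 groups. The groups were mesenchyme of H&H 35 and of H&H 31, followed by epithelium of the same stages. H&H 31 (E7, embryonic day 7) and H&H 35 (E9, embryonic day 9) are Hamburger and Hamilton stages before and after the onset of feather bud elongation, and the study set them against each other to look for ion channels whose expression might go with the change in electric current between the stages. The eggs were of White leghorn chickens, and all 4 groups were of this breed. The labels give no genotype or treatment for the embryos, nor their sex, nor how many went into a library. The 2 libraries of a group are called batch I and batch II in the labels and biological replicates in the study's methods. The p-values rest on the spread between these pairs of samples, pooled over the 4 groups and moderated by that of other genes.

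The respiratory chain lies in the inner membrane of the mitochondrion. Complex I takes electrons from NADH and complex II from succinate, both pass them to ubiquinone, complex III passes them on to cytochrome c and complex IV to oxygen. Complexes I, III and IV pump protons as they do so, and complex V makes ATP as the protons flow back. Most subunits are encoded in the nucleus, translated in the cytosol and imported, and a small core of complexes I, III, IV and V is encoded by mitochondrial DNA. Of the mitochondrially encoded subunits 0 were matched in the table, and they are not analysed here.

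Libraries held between 22050712 and 33620383 alignments. Values are RPKM, read numbers divided by the depth of the library and by the length of the transcript, which allows levels of different genes to be set side by side. The 53 genes together made up between 1.34 and 1.98% of the summed RPKM of a library. The labelled tissues were checked against markers. All 9 epithelial markers tested, among them CDH1, EPCAM and KRT14, were lower in mesenchyme than in epithelium at both stages (summed 36.4 to 39.1 RPKM in H&H 35 mesenchyme against 2331 to 2582 RPKM in H&H 35 epithelium), and all 6 mesenchymal markers tested were higher in H&H 35 mesenchyme. At H&H 31, 5 of these 6 were higher in mesenchyme and 1 did not pass the test (summed 3850 to 4002 RPKM in mesenchyme against 846 to 959 RPKM in epithelium). COL1A2 and DCN, both genes of the dermal matrix, were however also high in epithelium (COL1A2 369 and 394 RPKM and DCN 271 and 285 RPKM in H&H 35 epithelium). In whole tissue, fewer cells of a type and less RNA per cell cannot be told apart.

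All 53 genes passed the filter on low values (2 or more libraries with an RPKM of 1 or more). Their means over the 8 libraries lay between 8.16 and 384 RPKM. Complex IV and complex V genes stood highest, with a median of group means of 166 RPKM for complex IV and 151 RPKM for complex V in H&H 35 mesenchyme, against 42.9 RPKM for complex I. The most abundant gene was COX6C, a small accessory subunit of cytochrome c oxidase, at 530.1 ± 55.9 RPKM in H&H 35 mesenchyme (SD, n = 2), and in both epithelial groups it was ATP5B, the catalytic beta subunit of ATP synthase, at 445 ± 62.1 RPKM in H&H 35 epithelium. The lowest were ATP5J2 (subunit f of ATP synthase) and ATP5S (coupling factor B, which is named with the complex but is not one of its core subunits), both between 6.73 and 12.0 RPKM in every library. Within complex I the highest was NDUFA4, at 104 ± 14.2 RPKM in H&H 35 mesenchyme and 151 ± 19.6 RPKM in H&H 35 epithelium. Its protein has been placed with complex IV in mammals, although its symbol is that of a complex I subunit. The lowest of complex I was NDUFV3, an accessory subunit beside the flavoprotein, at 11.9 ± 1.35 RPKM in H&H 35 mesenchyme and 15.8 ± 2.43 RPKM in H&H 35 epithelium.

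**Figure D1:**
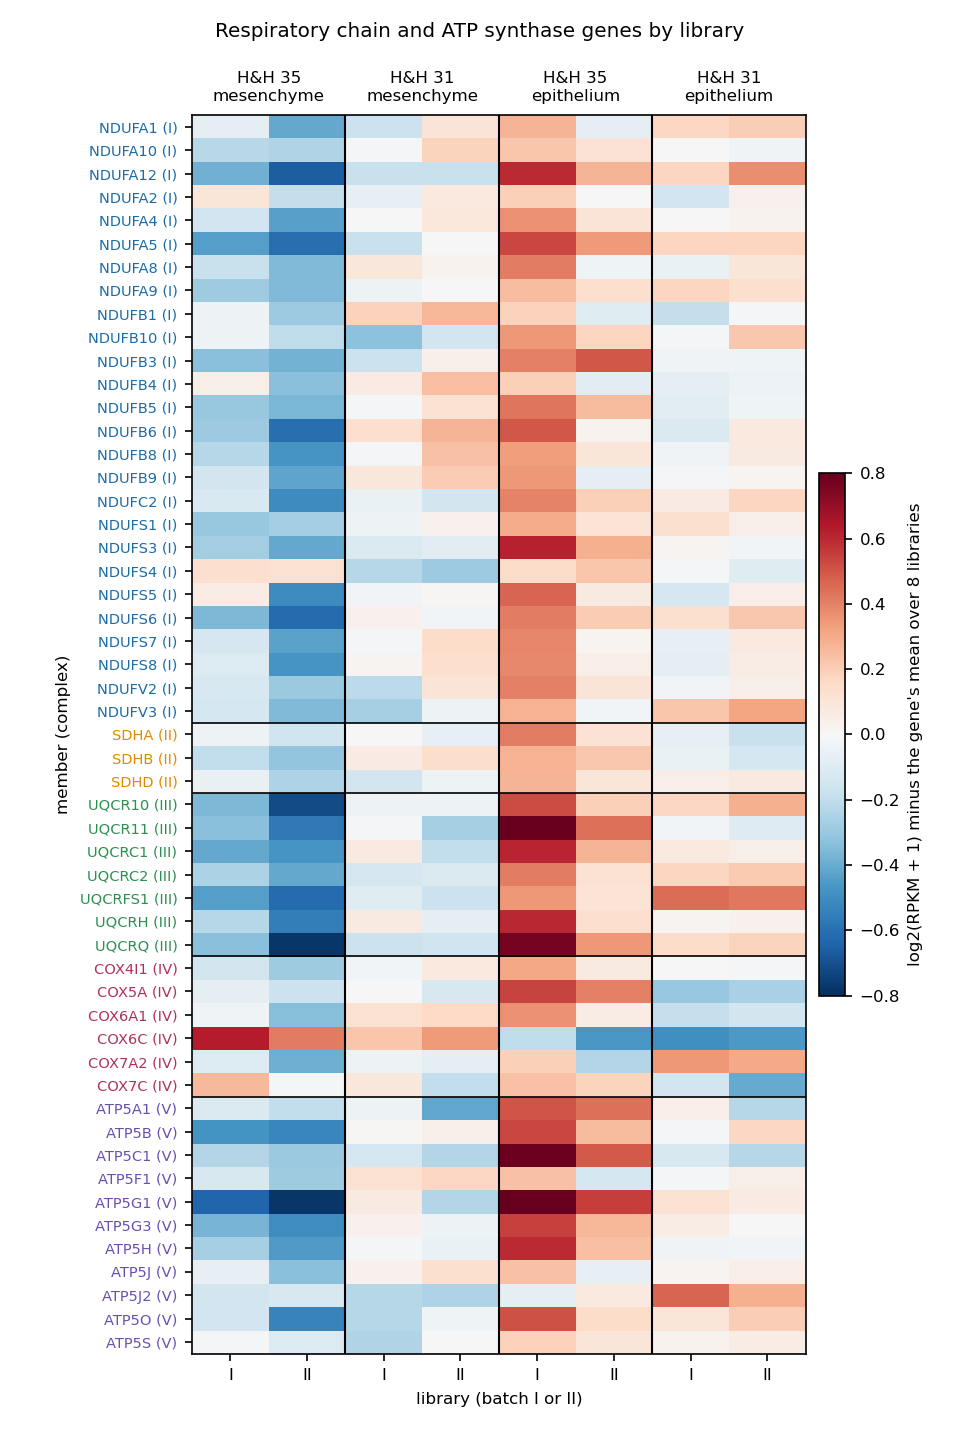
Each row is 1 of the 53 genes with its complex in brackets, each column a library, and the colour is log2(RPKM + 1) minus the gene's mean over the 8 libraries (colours stop at the ends of the scale). The H&H 35 mesenchyme columns are mostly blue and the H&H 35 epithelium columns mostly red, while the H&H 31 columns are pale. COX6C, NDUFS4, COX7C and ATP5J2 depart from this pattern.

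Most of the genes had similar patterns over the 8 libraries. In H&H 35 mesenchyme 6 of 53 genes lay above their own mean over all libraries in batch I and 2 of 53 in batch II, in H&H 35 epithelium 51 and 43 of 53 did, and in the H&H 31 libraries between 19 and 34 of 53. Pearson's r of log2(RPKM + 1) between a gene and the mean of the other genes, over 8 libraries that share tissue, stage and batch, had a median of 0.90. It was above 0.8 for 35 of 53 genes and above 0.5 for 49. The same r was not computed for other genes, so these counts have no share over all genes tested beside them. The most alike was ATP5H (subunit d of ATP synthase) at 0.98, followed by UQCRQ and UQCRH. The 4 genes below 0.5 were ATP5J2 (0.20), COX7C (0.12), NDUFS4 (0.07) and COX6C (-0.66).

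The libraries of batches I and II differed from each other in these genes at H&H 35. In H&H 35 mesenchyme 51 of 53 genes were higher in batch I (median difference of batch I minus batch II 0.19 on the log2 scale), and in H&H 35 epithelium 50 of 53 were (median 0.28), whereas the median over all genes tested was 0.01 and -0.02. At H&H 31, 19 of 53 genes were higher in batch I in either tissue. At H&H 35 the 2 libraries of a group thus differed in the same direction in nearly all of these genes.

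In epithelium the question was which genes change between the stages. Of the 53 genes, 16 rose at H&H 35 and 1 fell, while the test was not passed by the other 36. Of all 11155 genes tested 18.6% rose and 15.9% fell (34.4% in all). The median log2 difference was 0.20, against 0.02 over all genes tested, and 48 of 53 estimates were positive. In 29 of 53 genes both H&H 35 libraries lay above both H&H 31 libraries, against 37.5% of all genes tested. Complex V had 5 of 11 genes that rose and 1 that fell, complex IV 3 of 6, complex II 2 of 3, complex III 2 of 7 and complex I 4 of 26. The share that rose in complex I (15.4%) was thus no higher than that over all genes tested (18.6%), while 24 of its 26 estimates were positive. The 4 largest rises were in the genes for the rotating shaft and the membrane ring of ATP synthase, for a cytochrome c oxidase subunit and for a small subunit of complex III.

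ATP5C1, the gamma subunit that forms the rotating shaft of ATP synthase, stood at 329 and 268 RPKM in H&H 35 epithelium, against 174 and 162 RPKM in H&H 31 epithelium (log2 difference 0.82 ± 0.10, limma adjusted p = 0.000409; ± gives the SE of the fit here and below, on the scale of log2(RPKM + 1)). COX5A, a nuclear subunit of cytochrome c oxidase, had 222 and 201 RPKM in H&H 35 epithelium, against 123 and 126 RPKM in H&H 31 epithelium (log2 difference 0.75 ± 0.08, limma adjusted p = 0.000186). For both genes each H&H 35 library lay well above both H&H 31 libraries, by more than the distance between replicates. UQCR11, a small accessory subunit of complex III, was measured at 172 and 129 RPKM in H&H 35 epithelium, against 92.9 and 87.7 RPKM in H&H 31 epithelium (log2 difference 0.71 ± 0.15, limma adjusted p = 0.00543). ATP5G1, 1 of the genes for the membrane ring subunit c of ATP synthase, had 252 and 208 RPKM in H&H 35 epithelium, against 154 and 148 RPKM in H&H 31 epithelium (log2 difference 0.59 ± 0.12, limma adjusted p = 0.00551). In these 2 genes, as in ATP5C1, batch I was clearly higher than batch II at H&H 35. In each of them the lower of the pair was still above both H&H 31 libraries.

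The alpha subunit gene ATP5A1 of ATP synthase had 399 and 381 RPKM in H&H 35 epithelium, against 291 and 239.8 RPKM in H&H 31 epithelium (log2 difference 0.56 ± 0.13, limma adjusted p = 0.0112). Its partner ATP5B, at 489 and 401 RPKM in H&H 35 epithelium, against 335 and 378 RPKM in H&H 31 epithelium, missed the threshold (log2 difference 0.31 ± 0.11, limma adjusted p = 0.0507). The groups did not overlap in either gene. The 2 redox subunits of complex II rose together. SDHA, the flavoprotein that oxidises succinate, stood at 68.5 and 55.7 RPKM in H&H 35 epithelium, against 49.1 and 45.2 RPKM in H&H 31 epithelium (log2 difference 0.38 ± 0.10, limma adjusted p = 0.0206). SDHB, the iron-sulfur subunit, was at 78.3 and 74.9 RPKM in H&H 35 epithelium, against 62.1 and 58.3 RPKM in H&H 31 epithelium (log2 difference 0.34 ± 0.08, limma adjusted p = 0.00875). The other cytochrome c oxidase genes that rose were COX6A1 and COX7C. COX6A1 had 281 and 226 RPKM in H&H 35 epithelium, against 191 and 196 RPKM in H&H 31 epithelium (log2 difference 0.38 ± 0.13, limma adjusted p = 0.0456). COX7C had 85.6 and 82.4 RPKM in H&H 35 epithelium, against 65.3 and 54.5 RPKM in H&H 31 epithelium (log2 difference 0.49 ± 0.13, limma adjusted p = 0.0183). In complex I the genes that rose were the accessory subunits NDUFB3, NDUFB5 and NDUFS4 and the core subunit NDUFS3. Their log2 differences were 0.48 ± 0.09, 0.40 ± 0.09, 0.23 ± 0.08 and 0.45 ± 0.11. The only 1 of the 53 genes that fell was ATP5J2, with 7.91 and 8.91 RPKM in H&H 35 epithelium, against 12.0 and 10.5 RPKM in H&H 31 epithelium (log2 difference -0.38 ± 0.11, limma adjusted p = 0.0228).

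The count in epithelium depended on single libraries. It was 7 without H&H 31 epithelium II, 8 without H&H 31 epithelium I, 8 without H&H 35 epithelium I and 22 without H&H 35 epithelium II. Of the 17 calls, those of ATP5C1, ATP5G1, COX5A, NDUFB3 and UQCR11 held under all 18 alternatives. That of SDHB was lost in 1 alternative, those of ATP5A1 and ATP5J2 in 3, of COX7C in 5, of SDHA in 6, of COX6A1 in 11 and of NDUFS4 in 12. With RPKM scaled to an equal sum the split was 11 higher and 3 lower, and with quantile normalization 10 higher and 3 lower. Markers of cell types moved in the same comparison. In epithelium 6 of 9 epithelial markers rose (summed 2331 to 2582 RPKM at H&H 35 against 983 to 1260 RPKM at H&H 31), and 4 of 6 melanocyte markers rose while 1 fell (340.0 to 395 against 190 to 255 RPKM). Among 6 mesenchymal markers 2 fell and 1 rose in epithelium (690 to 730 against 846 to 959 RPKM). Of 5 markers of neurons and Schwann cells 4 fell (107 RPKM in either H&H 35 library against 205 to 235 RPKM at H&H 31), as did 1 of 5 markers of macrophages and leukocytes (6.36 to 8.44 against 13.03 to 20.6 RPKM). The part of these cells in the result was not tested.

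Mesenchyme showed the opposite direction. Of the 53 genes, 20 fell at H&H 35 and 1 rose, while the test was not passed by the other 32. Of all genes tested 21.6% fell and 18.2% rose (39.8% in all). The median log2 difference was -0.30, against -0.03 over all genes tested, and 46 of 53 estimates were negative. In 35 of 53 genes both H&H 35 libraries lay below both H&H 31 libraries, against 38.1% of all genes tested. Complex I had 12 of 26 genes that fell, complex V 4 of 11, complex III 3 of 7, complex II 1 of 3 and complex IV 0 of 6. At an unadjusted p under 0.05, limma gave 2 of the 6 complex IV genes.

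NDUFB6, an accessory subunit of the membrane arm of complex I, had 43.8 and 35.2 RPKM in H&H 35 mesenchyme, against 59.3 and 65.4 RPKM in H&H 31 mesenchyme (log2 difference -0.65 ± 0.16, limma adjusted p = 0.0113). ATP5G1, which had risen in epithelium, stood at 90.6 and 82.2 RPKM in H&H 35 mesenchyme, against 148 and 120.2 RPKM in H&H 31 mesenchyme (log2 difference -0.62 ± 0.12, limma adjusted p = 0.00394). In both genes the 2 groups were apart. ATP5B had 242 and 234 RPKM in H&H 35 mesenchyme, against 339 and 348 RPKM in H&H 31 mesenchyme (log2 difference -0.53 ± 0.11, limma adjusted p = 0.00479), a fall of 30.6% in mean RPKM with replicates that lay close together. UQCR10, a small subunit of complex III, was at 122 and 95.4 RPKM in H&H 35 mesenchyme, against 153 and 153 RPKM in H&H 31 mesenchyme (log2 difference -0.50 ± 0.14, limma adjusted p = 0.0189). NDUFS6, an accessory subunit of the arm of complex I that binds NADH, was at 38.3 and 31.9 RPKM in H&H 35 mesenchyme, against 50.7 and 48.7 RPKM in H&H 31 mesenchyme (log2 difference -0.49 ± 0.11, limma adjusted p = 0.00598). No library of either of these genes at H&H 35 reached its H&H 31 level.

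Among genes for electron-carrying subunits, UQCRFS1, the Rieske iron-sulfur protein of complex III, fell, with 19.6 and 17.3 RPKM in H&H 35 mesenchyme, against 25.3 and 23.9 RPKM in H&H 31 mesenchyme (log2 difference -0.39 ± 0.10, limma adjusted p = 0.0141). NDUFS1, which carries iron-sulfur clusters in complex I, fell as well, with 38.2 and 39.0 RPKM in H&H 35 mesenchyme, against 45.9 and 48.5 RPKM in H&H 31 mesenchyme (log2 difference -0.28 ± 0.08, limma adjusted p = 0.025). SDHB fell too, with 56.1 and 51.4 RPKM in H&H 35 mesenchyme, against 67.4 and 71.1 RPKM in H&H 31 mesenchyme (log2 difference -0.36 ± 0.08, limma adjusted p = 0.00613). Its partner SDHA, with 49.9 and 45.9 RPKM in H&H 35 mesenchyme, against 51.3 and 49.1 RPKM in H&H 31 mesenchyme, did not pass the test (log2 difference -0.07 ± 0.10, limma adjusted p = 0.645). Nor did the complex I genes NDUFS3, NDUFS5, NDUFS7, NDUFS8, NDUFV2 and NDUFV3 pass it in mesenchyme. The only 1 of the 53 genes that rose in mesenchyme was NDUFS4, an accessory subunit needed for stable complex I in mammals. It stood at 28.8 and 28.5 RPKM in H&H 35 mesenchyme, against 22.1 and 21.2 RPKM in H&H 31 mesenchyme (log2 difference 0.39 ± 0.08, limma adjusted p = 0.00393), with replicates within 1 RPKM of each other. The remaining genes that fell were NDUFA4, NDUFA5, NDUFA9, NDUFA10, NDUFB1, NDUFB3, NDUFB5, NDUFB8, NDUFB9, UQCRC1, ATP5F1 and ATP5G3, with log2 differences from -0.29 to -0.46.

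The count in mesenchyme was 6 without H&H 35 mesenchyme II, 7 without H&H 31 mesenchyme II and 12 without H&H 31 mesenchyme I. It was 31 without either H&H 35 epithelium library, where the shared estimate of the spread leaves that group with 1 library. The calls of ATP5B, ATP5G1, NDUFS4 and NDUFS6 held under all 18 alternatives, and that of NDUFB6 was lost without H&H 31 mesenchyme II and without H&H 35 mesenchyme II. The call of SDHB was lost in 1 alternative, that of UQCRFS1 in 2, of UQCR10 in 4 and of NDUFS1 in 7. Quantile normalization gave 3 higher and 13 lower. Markers of other cells moved in the same comparison, with 7 of 8 endothelial markers (summed 153 to 174 RPKM at H&H 35 against 82.8 to 87.2 RPKM at H&H 31) and 3 of 4 markers of smooth muscle and pericytes (63.0 to 79.0 against 17.4 to 17.9 RPKM) higher, and 3 of 4 red cell markers lower (38.5 to 41.4 against 244 to 333 RPKM). Of 9 epithelial markers 8 were also higher in mesenchyme at H&H 35 (summed 36.4 to 39.1 RPKM against 10.3 to 17.0 RPKM at H&H 31), and 2 of 5 markers of neurons and Schwann cells were lower (48.9 to 59.0 against 130 to 141 RPKM). Among 6 mesenchymal markers 2 were lower and 1 was higher (3219 to 3596 against 3850 to 4002 RPKM). Striated muscle markers summed to 86.2 RPKM in 1 H&H 35 mesenchyme library and 11.9 RPKM in the other, against 9.40 to 11.4 RPKM at H&H 31. Over the 4 muscle markers tested, the median of batch I minus batch II on the log2 scale was 1.61 in H&H 35 mesenchyme. In H&H 35 epithelium that median was 0.02. The part of these cells in the result was not tested.

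**Figure D2:**
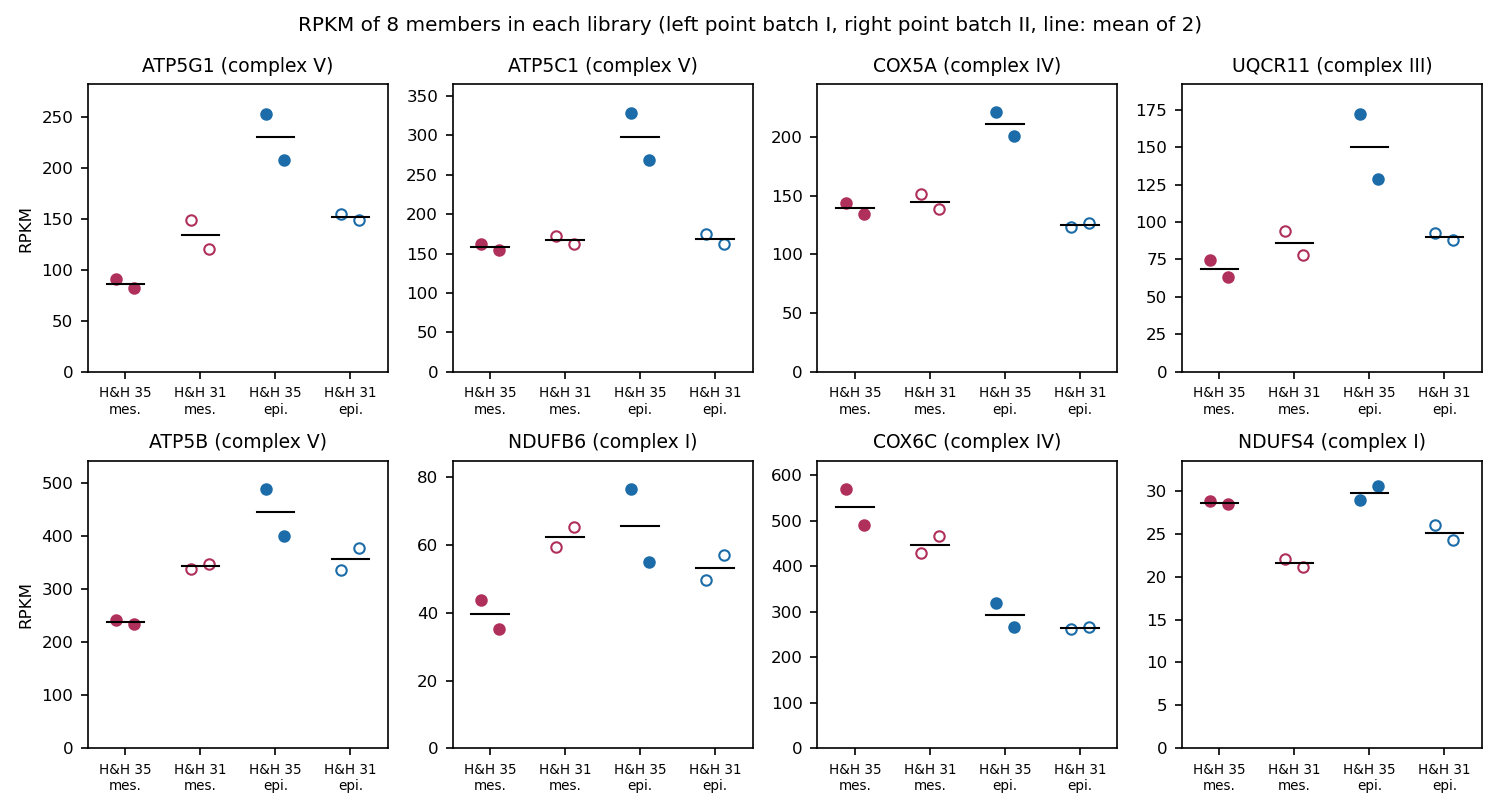
RPKM of 8 genes in each library, with mesenchyme in red and epithelium in blue, filled points for H&H 35 and open points for H&H 31, batch I left of batch II and a line at the mean of 2. ATP5G1 falls in H&H 35 mesenchyme and rises in H&H 35 epithelium, COX6C is higher in mesenchyme at both stages, and NDUFS4 is higher at H&H 35 in both tissues.

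The stage change itself differed between the tissues. The interaction term (the change in mesenchyme less the change in epithelium) was negative and past the threshold in 30 of 53 genes and positive in 1, against 23.0% and 19.4% of all genes tested (42.4% in all). Its median was -0.50, against -0.05 over all genes tested. By complex it was negative and past the threshold in 15 of 26 genes of complex I, 2 of 3 of complex II, 5 of 7 of complex III, 3 of 6 of complex IV and 5 of 11 of complex V. A positive estimate in epithelium together with a negative one in mesenchyme, which are 2 comparisons with no library in common, was found in 42 of 53 genes (79.2%) and in 3292 of 11155 genes tested (29.5%). Both changes passed the test on their own in 6 genes, NDUFB3, NDUFB5, SDHB, UQCRC1, ATP5G1 and ATP5G3, which rose in epithelium and fell in mesenchyme.

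The largest difference between the tissues was that of ATP5G1, whose stage change was -0.62 ± 0.12 in mesenchyme and 0.59 ± 0.12 in epithelium (interaction log2 difference -1.22 ± 0.17, limma adjusted p = 0.000686). UQCR11 followed, with -0.32 ± 0.15 in mesenchyme and 0.71 ± 0.15 in epithelium (interaction log2 difference -1.03 ± 0.21, limma adjusted p = 0.00415). For NDUFB6 most of the difference lay in mesenchyme, with -0.65 ± 0.16 there and 0.28 ± 0.16 in epithelium (interaction log2 difference -0.93 ± 0.23, limma adjusted p = 0.00997). ATP5C1 was the reverse case, with -0.08 ± 0.10 in mesenchyme and 0.82 ± 0.10 in epithelium (interaction log2 difference -0.89 ± 0.15, limma adjusted p = 0.00139). ATP5B had -0.53 ± 0.11 in mesenchyme and 0.31 ± 0.11 in epithelium (interaction log2 difference -0.84 ± 0.15, limma adjusted p = 0.00242). The 1 gene with a positive interaction was ATP5J2, at 0.10 ± 0.11 in mesenchyme and -0.38 ± 0.11 in epithelium (interaction log2 difference 0.47 ± 0.15, limma adjusted p = 0.0305). The interaction calls of ATP5G1, UQCR11, NDUFB6, ATP5C1 and ATP5B held under all 18 alternatives, and that of ATP5J2 was lost in 6, all of them without 1 library. Leaving out H&H 31 mesenchyme II, or H&H 35 epithelium I, gave a count of 18. The count was 19 when H&H 31 epithelium I was left out or H&H 35 mesenchyme II, 20 without H&H 31 mesenchyme I and 17 with quantile normalization. With RPKM scaled to an equal sum the median over all genes tested moved from -0.05 to 0.10 and that of the 53 genes was -0.33.

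**Figure D3:**
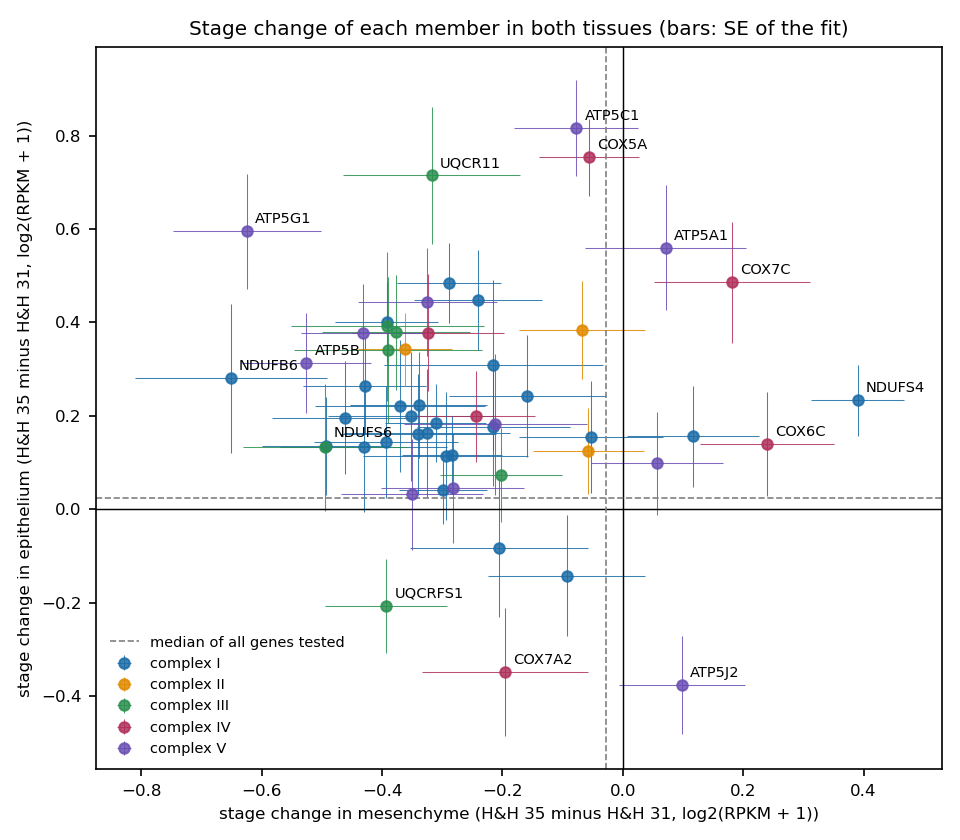
Each point is 1 of the 53 genes, coloured by complex, with the stage change (H&H 35 minus H&H 31) in mesenchyme on the x axis and in epithelium on the y axis, both on the scale of log2(RPKM + 1), and bars for the SE of the fit. Of 53 points 42 lie in the upper left. Right of 0 on the x axis lie 7 points, among them NDUFS4, COX6C and ATP5A1, and dashed lines mark the medians of all genes tested.

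Between the tissues at H&H 35, mesenchyme was lower in 41 of 53 genes and higher in 1, while the test was not passed by the other 11. Of all genes tested 37.1% were lower and 29.1% higher (66.2% in all). The median log2 difference was -0.51, against -0.10 over all genes tested. All 7 genes of complex III and all 3 of complex II were lower, as were 21 of 26 of complex I, 7 of 11 of complex V and 3 of 6 of complex IV. In 45 of the 53 genes both mesenchyme libraries lay below both epithelium libraries, as they did in 46.2% of all genes tested.

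ATP5G1 had the largest difference, with 90.6 and 82.2 RPKM in H&H 35 mesenchyme, against 252 and 208 RPKM in H&H 35 epithelium (log2 difference -1.40 ± 0.12, limma adjusted p = 9.34e-06). UQCRQ, a subunit of complex III, had 49.3 and 35.9 RPKM in H&H 35 mesenchyme, against 107 and 79.5 RPKM in H&H 35 epithelium (log2 difference -1.11 ± 0.16, limma adjusted p = 0.000235). UQCR11 had 74.6 and 63.0 RPKM in H&H 35 mesenchyme, against 172 and 129 RPKM in H&H 35 epithelium (log2 difference -1.11 ± 0.15, limma adjusted p = 0.00014). In each of these 3 genes every mesenchyme library was below every epithelium library. NDUFA5 and NDUFA12, both accessory subunits of complex I, came next. NDUFA5 stood at 17.4 and 15.5 RPKM in H&H 35 mesenchyme, against 35.2 and 30.7 RPKM in H&H 35 epithelium (log2 difference -0.96 ± 0.10, limma adjusted p = 3.34e-05). NDUFA12 stood at 52.6 and 43.3 RPKM in H&H 35 mesenchyme, against 105 and 83.3 RPKM in H&H 35 epithelium (log2 difference -0.95 ± 0.13, limma adjusted p = 0.000161). UQCRH, the hinge protein of complex III and its most abundant gene by mean over all libraries, had 152 and 121 RPKM in H&H 35 mesenchyme, against 272 and 196 RPKM in H&H 35 epithelium (log2 difference -0.76 ± 0.16, limma adjusted p = 0.0021). Complex II had smaller differences. SDHB was at 56.1 and 51.4 RPKM in H&H 35 mesenchyme, against 78.3 and 74.9 RPKM in H&H 35 epithelium (log2 difference -0.50 ± 0.08, limma adjusted p = 0.000361). SDHD, a membrane anchor of complex II, was at 47.8 and 41.8 RPKM in H&H 35 mesenchyme, against 60.3 and 53.3 RPKM in H&H 35 epithelium (log2 difference -0.34 ± 0.09, limma adjusted p = 0.0106).

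The exception was COX6C, which was higher in mesenchyme, with 569.6 and 491 RPKM in H&H 35 mesenchyme, against 319.6 and 266 RPKM in H&H 35 epithelium (log2 difference 0.86 ± 0.11, limma adjusted p = 0.000127). The 11 genes that did not pass the test were NDUFA1, NDUFA2, NDUFB1, NDUFB4, NDUFS4, COX7A2, COX7C, ATP5F1, ATP5J, ATP5J2 and ATP5S, with log2 differences from -0.34 to -0.05. Of the 42 calls 29 held under all 19 alternatives, and the count was 31 without H&H 35 epithelium I or without H&H 35 mesenchyme II.

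At H&H 31 the tissues were closer in these genes. Mesenchyme was higher in 2 of 53 and lower in 8 of 53, 18.9% in all, against 57.4% of all genes tested (29.7% higher and 27.7% lower). The median log2 difference was -0.03, against -0.01 over all genes tested. Both mesenchyme libraries lay above both epithelium libraries in 10 of 53 genes and below them in 20 of 53. Of all genes tested 40.8% lay above and 40.8% below in this way. The other 43 genes did not pass the test, which does not show that they were alike.

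COX6C was again higher in mesenchyme, with 429 and 467 RPKM in H&H 31 mesenchyme, against 262 and 268 RPKM in H&H 31 epithelium (log2 difference 0.76 ± 0.11, limma adjusted p = 0.000338). Its interaction did not pass the test (log2 difference 0.10 ± 0.16, limma adjusted p = 0.645). The other gene that was higher was NDUFB1, an accessory subunit of complex I, with 105 and 111 RPKM in H&H 31 mesenchyme, against 80.6 and 91.8 RPKM in H&H 31 epithelium (log2 difference 0.33 ± 0.12, limma adjusted p = 0.042). ATP5J2 was lower in mesenchyme, with 7.03 and 6.94 RPKM in H&H 31 mesenchyme, against 12.0 and 10.5 RPKM in H&H 31 epithelium (log2 difference -0.61 ± 0.11, limma adjusted p = 0.000886). So was UQCRFS1, with 25.3 and 23.9 RPKM in H&H 31 mesenchyme, against 37.3 and 36.5 RPKM in H&H 31 epithelium (log2 difference -0.57 ± 0.10, limma adjusted p = 0.00108). The libraries of the 2 tissues did not overlap in these 4 genes. NDUFA12 had 60.7 and 60.7 RPKM in H&H 31 mesenchyme, against 77.7 and 89.4 RPKM in H&H 31 epithelium (log2 difference -0.45 ± 0.13, limma adjusted p = 0.0147). NDUFV3 had 11.7 and 13.8 RPKM in H&H 31 mesenchyme, against 16.9 and 18.0 RPKM in H&H 31 epithelium (log2 difference -0.42 ± 0.13, limma adjusted p = 0.0203). COX7A2, a small subunit of cytochrome c oxidase, had 101 and 99.2 RPKM in H&H 31 mesenchyme, against 133 and 129 RPKM in H&H 31 epithelium (log2 difference -0.38 ± 0.14, limma adjusted p = 0.0395). The last 3 genes that were lower were NDUFB10, NDUFS4 and UQCRC2.

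Only the calls of ATP5J2, COX6C and UQCRFS1 at H&H 31 held under all 19 alternatives, while those of NDUFA12 and NDUFV3 were lost in 3 and those of NDUFB1 and COX7A2 in 6. Quantile normalization gave 1 higher and 14 lower. The count was 3 without H&H 31 mesenchyme I, 4 without H&H 31 epithelium II, 5 without H&H 31 epithelium I and 6 without H&H 31 mesenchyme II. With a block for the batch number within each stage it was 23, of which 8 were higher and 15 lower.

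**Figure D4:**
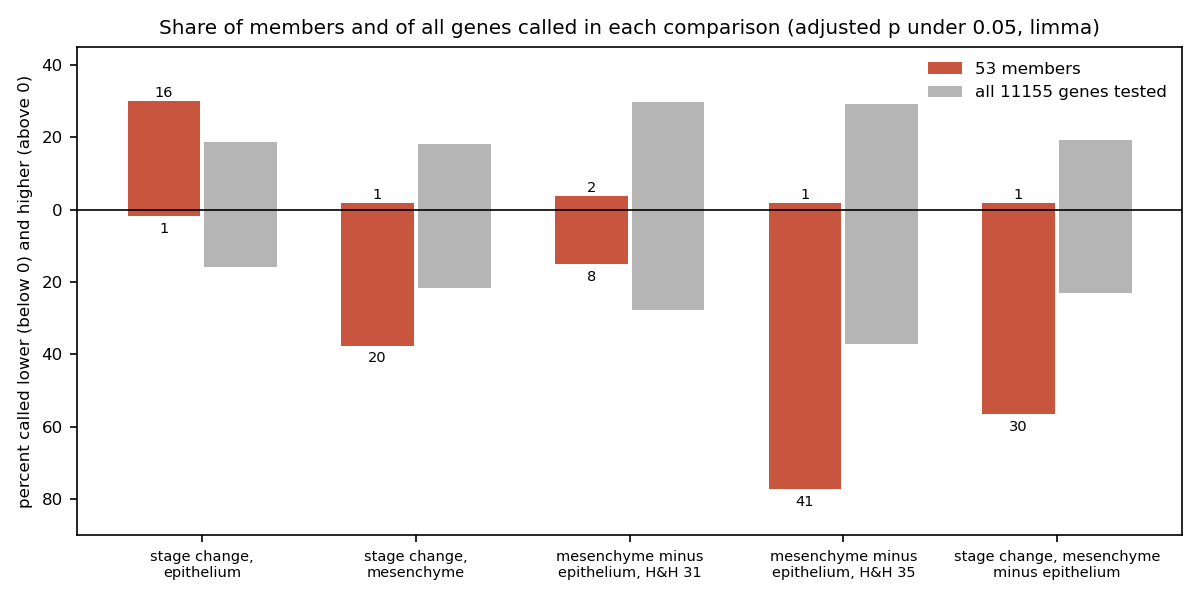
Percent of the 53 genes (red) and of all 11155 genes tested (grey) that passed the test in each of the 5 comparisons, those higher drawn above 0 and those lower below it, with the number of the 53 genes beside each red bar. The red bars reach furthest for mesenchyme against epithelium at H&H 35, where 41 genes were lower, and are shortest at H&H 31.

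Several subunits have more than 1 gene. The mature subunit c of ATP synthase is the same protein from each of its genes, of which ATP5G1 and ATP5G3 were measured. ATP5G3 was the higher of the pair, with 203 and 185 RPKM in H&H 35 mesenchyme, against 269 and 255 RPKM in H&H 31 mesenchyme. In epithelium it had 385 and 316 RPKM in H&H 35 epithelium, against 274 and 262 RPKM in H&H 31 epithelium. Its stage change was -0.43 ± 0.10 in mesenchyme and 0.38 ± 0.10 in epithelium (limma adjusted p = 0.0105 and 0.0211), of the same sign as that of ATP5G1 in either tissue. Leaving out H&H 31 mesenchyme I or H&H 35 mesenchyme II ended its call in mesenchyme. That in epithelium was lost in 4 alternatives, 3 of them without 1 library. COX4I1, COX6A1 and COX7A2 are the isoforms that most mammalian tissues use. Their muscle or lung isoforms COX4I2, COX6A2 and COX7A1 were not matched by name in the table, and they are not analysed here. COX4I1 stood at 265 and 241 RPKM in H&H 35 mesenchyme, against 289 and 309.9 RPKM in H&H 31 mesenchyme. In epithelium it stood at 364 and 309 RPKM in H&H 35 epithelium, against 293 and 292 RPKM in H&H 31 epithelium, and neither stage change passed the test (limma adjusted p = 0.0777 in mesenchyme and 0.153 in epithelium). COX6A1 had 213 and 171 RPKM in H&H 35 mesenchyme, against 236 and 243 RPKM in H&H 31 mesenchyme (log2 difference -0.32 ± 0.13, limma adjusted p = 0.0699). COX7A2 had 96.6 and 79.2 RPKM in H&H 35 mesenchyme, against 101 and 99.2 RPKM in H&H 31 mesenchyme. Its epithelial values were 119 and 88.7 RPKM in H&H 35 epithelium, against 133 and 129 RPKM in H&H 31 epithelium, and neither stage change passed the test (limma adjusted p = 0.293 and 0.0813).

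In RefSeq annotation of the assembly GRCg7b, 52 of the 53 genes were matched by symbol or synonym, and ATP5A1, COX7C and NDUFS4 lie on chromosome Z, of which female birds carry 1 copy and male birds 2. ATP5A1 has a near-identical copy on chromosome W, and the table has 1 entry for the gene, so that its values may hold reads of both. ATP5A1 stood at 259 and 245 RPKM in H&H 35 mesenchyme, against 273 and 210.2 RPKM in H&H 31 mesenchyme (log2 difference 0.07 ± 0.13, limma adjusted p = 0.709). COX7C had 87.1 and 72.1 RPKM in H&H 35 mesenchyme, against 77.2 and 63.1 RPKM in H&H 31 mesenchyme (log2 difference 0.18 ± 0.13, limma adjusted p = 0.301). Together with NDUFB10, COX6C and ATP5S, these 3 genes were the ones whose stage estimate was positive in both tissues. The 452 genes tested that lie on chromosome Z had a median stage change of 0.15 in mesenchyme and of 0.15 in epithelium, against -0.04 and 0.02 for 8586 autosomal genes. The shift was larger in batch II. There the median deviation of the Z genes from their own mean went from -0.10 at H&H 31 to 0.12 at H&H 35 in mesenchyme. In epithelium of batch II it went from -0.19 to 0.14. In batch I it went from -0.01 to 0.06 in mesenchyme and from -0.04 to -0.03 in epithelium. The sex of the embryos is not given, and its part in the values of these 3 genes was not tested.

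Other genes of mitochondrial respiration, from lists written by function, were set beside the subunits. Their counts are to be read against all genes tested, of which 18.2% rose and 21.6% fell in mesenchyme and 18.6% rose and 15.9% fell in epithelium. Of 8 carriers and subunits outside the naming rule, 0 rose and 3 fell in mesenchyme and 2 rose and 1 fell in epithelium. SLC25A4, an ADP/ATP carrier of the inner membrane, fell in both tissues, with 22.1 and 20.7 RPKM in H&H 35 mesenchyme, against 26.7 and 29.8 RPKM in H&H 31 mesenchyme (log2 difference -0.38 ± 0.08, limma adjusted p = 0.00616). The epithelial values of SLC25A4 were 20.2 and 19.6 RPKM in H&H 35 epithelium, against 32.5 and 32.6 RPKM in H&H 31 epithelium (log2 difference -0.68 ± 0.08, limma adjusted p = 0.000328). SLC25A6, also an ADP/ATP carrier and far more abundant, rose in epithelium (log2 difference 0.31 ± 0.08, limma adjusted p = 0.0179). It had 606 and 596 RPKM in H&H 35 epithelium, against 485 and 485 RPKM in H&H 31 epithelium. Its values were 497 and 541 RPKM in H&H 35 mesenchyme, against 528 and 550 RPKM in H&H 31 mesenchyme. That change did not pass the test (log2 difference -0.05 ± 0.08, limma adjusted p = 0.637). CYCS, cytochrome c itself (listed as CYC), had 115 and 105 RPKM in H&H 35 mesenchyme, against 152 and 156 RPKM in H&H 31 mesenchyme (log2 difference -0.48 ± 0.14, limma adjusted p = 0.0268). SLC25A3, the phosphate carrier that feeds ATP synthase, had 190.1 and 178 RPKM in H&H 35 mesenchyme, against 230.1 and 259 RPKM in H&H 31 mesenchyme (log2 difference -0.41 ± 0.09, limma adjusted p = 0.00567). NDUFAB1, the acyl carrier protein that is also part of complex I, rose in epithelium, with 84.2 and 75.1 RPKM in H&H 35 epithelium, against 53.1 and 63.8 RPKM in H&H 31 epithelium (log2 difference 0.44 ± 0.11, limma adjusted p = 0.0117).

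Of 30 assembly factors, 3 rose and 13 fell in mesenchyme and 6 rose and 2 fell in epithelium. The share that fell in mesenchyme was 43.3%, whereas the share that rose in epithelium was near that over all genes tested. At H&H 35 mesenchyme was lower in 20 of them (66.7%, against 37.1% of all genes tested) and higher in 1. That 1 was ATPAF1, a chaperone for the beta subunit during assembly of ATP synthase, which stood at 27.6 and 26.5 RPKM in H&H 35 mesenchyme, against 11.6 and 12.3 RPKM in H&H 31 mesenchyme (log2 difference 1.11 ± 0.09, limma adjusted p = 4.08e-05). Its rise in mesenchyme was opposite in direction to the fall of ATP5B there. COX10 is 1 of the enzymes on the path to heme A of cytochrome c oxidase. It had 4.20 and 4.13 RPKM in H&H 35 mesenchyme, against 6.43 and 7.15 RPKM in H&H 31 mesenchyme (log2 difference -0.59 ± 0.11, limma adjusted p = 0.00238). In epithelium CMC2 (listed as C16ORF61), a factor for complex IV, fell, with 10.5 and 9.13 RPKM in H&H 35 epithelium, against 15.7 and 17.3 RPKM in H&H 31 epithelium (log2 difference -0.69 ± 0.11, limma adjusted p = 0.0015). NDUFAF4, a factor for complex I, rose there, with 10.3 and 9.10 RPKM in H&H 35 epithelium, against 7.18 and 6.44 RPKM in H&H 31 epithelium (log2 difference 0.45 ± 0.11, limma adjusted p = 0.0103).

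Of 18 regulators of mitochondrial genes and of mitochondrial DNA, 1 rose and 5 fell in mesenchyme and 5 rose and 0 fell in epithelium. With so few genes, the 27.8% that fell in mesenchyme and the 27.8% that rose in epithelium lay within 2 genes of the shares over all genes tested. The shares in the other directions were lower, at 5.56% that rose in mesenchyme (against 18.2%) and 0% that fell in epithelium (against 15.9%). At H&H 35 mesenchyme was lower in 11 of the 18 (61.1%, against 37.1% of all genes tested) and higher in 1. PPARGC1B, PPRC1 and PPARGC1A belong to the PGC-1 family of coactivators of mitochondrial genes. PPARGC1A had 0.318 and 0.343 RPKM in H&H 35 mesenchyme, against 0.708 and 0.623 RPKM in H&H 31 mesenchyme (log2 difference -0.32 ± 0.11, limma adjusted p = 0.0472). In epithelium PPARGC1A stood at 0.916 and 0.907 RPKM at H&H 35, against 1.12 and 1.14 RPKM at H&H 31. That change did not pass the test (log2 difference -0.15 ± 0.11, limma adjusted p = 0.333). PPARGC1B was at 3.04 and 3.60 RPKM in H&H 35 epithelium, against 0.836 and 0.668 RPKM in H&H 31 epithelium (log2 difference 1.30 ± 0.13, limma adjusted p = 0.000102). In mesenchyme it was close to 0, with 0.251 and 0.357 RPKM in H&H 35 mesenchyme, against 0.297 and 0.385 RPKM in H&H 31 mesenchyme. PPRC1 had 4.83 and 4.18 RPKM in H&H 35 mesenchyme, against 7.46 and 8.68 RPKM in H&H 31 mesenchyme (log2 difference -0.72 ± 0.13, limma adjusted p = 0.00213). In epithelium PPRC1 stood at 10.5 and 10.5 RPKM in H&H 35 epithelium, against 6.21 and 7.57 RPKM in H&H 31 epithelium (log2 difference 0.55 ± 0.13, limma adjusted p = 0.00911). MYC, a transcription factor that drives growth and mitochondrial biogenesis among other programmes, rose in both tissues, with 7.97 and 7.76 RPKM in H&H 35 mesenchyme, against 1.75 and 3.33 RPKM in H&H 31 mesenchyme (log2 difference 1.36 ± 0.20, limma adjusted p = 0.000871). The epithelial values of MYC were 26.4 and 29.98 RPKM in H&H 35 epithelium, against 5.21 and 6.78 RPKM in H&H 31 epithelium (log2 difference 2.07 ± 0.20, limma adjusted p = 9.42e-05).

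Of 15 genes of the tricarboxylic acid cycle, which makes the NADH that complex I oxidises, 0 rose and 8 fell in mesenchyme (53.3%) and 3 rose and 0 fell in epithelium, where the share that rose was near that over all genes tested. At H&H 35 mesenchyme was lower in 11 of the 15 (73.3%, against 37.1% of all genes tested) and higher in 0. Malate dehydrogenase MDH2 had 65.5 and 59.9 RPKM in H&H 35 mesenchyme, against 98.6 and 98.5 RPKM in H&H 31 mesenchyme (log2 difference -0.65 ± 0.12, limma adjusted p = 0.00249). In epithelium MDH2 stood at 157 and 120.1 RPKM in H&H 35 epithelium, against 92.5 and 93.4 RPKM in H&H 31 epithelium (log2 difference 0.56 ± 0.12, limma adjusted p = 0.0057). OGDH, of the oxoglutarate dehydrogenase complex, had 32.6 and 29.7 RPKM in H&H 35 mesenchyme, against 56.5 and 60.5 RPKM in H&H 31 mesenchyme (log2 difference -0.89 ± 0.10, limma adjusted p = 0.000164), with the groups far apart. Fumarate hydratase FH rose in epithelium, with 80.1 and 70.6 RPKM in H&H 35 epithelium, against 59.7 and 60.6 RPKM in H&H 31 epithelium (log2 difference 0.32 ± 0.08, limma adjusted p = 0.0148).

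Of 23 genes of protein import and folding in mitochondria, 0 rose and 12 fell in mesenchyme (52.2%) and 9 rose (39.1%) and 0 fell in epithelium. At H&H 35 mesenchyme was lower in 21 (91.3%, against 37.1% of all genes tested) and higher in 0. The co-chaperonin HSPE1 had 219 and 187 RPKM in H&H 35 mesenchyme, against 276 and 299.8 RPKM in H&H 31 mesenchyme (log2 difference -0.51 ± 0.12, limma adjusted p = 0.00982). In epithelium HSPE1 stood at 436 and 349 RPKM in H&H 35 epithelium, against 239.6 and 248 RPKM in H&H 31 epithelium (log2 difference 0.68 ± 0.12, limma adjusted p = 0.00257). CHCHD4, which oxidises proteins as they enter the intermembrane space, had 11.8 and 11.6 RPKM in H&H 35 mesenchyme, against 17.9 and 17.7 RPKM in H&H 31 mesenchyme (log2 difference -0.56 ± 0.10, limma adjusted p = 0.00219). In epithelium CHCHD4 stood at 26.6 and 22.0 RPKM at H&H 35, against 15.6 and 15.3 RPKM at H&H 31 (log2 difference 0.61 ± 0.10, limma adjusted p = 0.00154). TIMM23, the channel of the inner membrane, had 25.1 and 22.1 RPKM in H&H 35 mesenchyme, against 35.1 and 38.6 RPKM in H&H 31 mesenchyme (log2 difference -0.62 ± 0.11, limma adjusted p = 0.00263). TOMM20, a receptor of the outer membrane, had 92.0 and 85.7 RPKM in H&H 35 epithelium, against 54.1 and 58.6 RPKM in H&H 31 epithelium (log2 difference 0.65 ± 0.09, limma adjusted p = 0.00085). In MDH2, HSPE1 and CHCHD4 the stage change was thus negative in mesenchyme and positive in epithelium, as in most of the subunits.

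Enzymes that pass electrons to ubiquinone without complex I or II were mixed. Of 7 tested, 1 rose and 3 fell in mesenchyme and 1 rose and 2 fell in epithelium, each within 2 genes of the share over all genes tested. The sulfide oxidising enzyme SQRDL rose in both tissues, with 4.76 and 3.98 RPKM in H&H 35 mesenchyme, against 2.13 and 2.67 RPKM in H&H 31 mesenchyme (log2 difference 0.66 ± 0.13, limma adjusted p = 0.00413). The epithelial values of SQRDL were 7.88 and 7.37 RPKM in H&H 35 epithelium, against 3.51 and 3.09 RPKM in H&H 31 epithelium (log2 difference 1.005 ± 0.13, limma adjusted p = 0.000497). DHODH, of pyrimidine synthesis, had 9.23 and 7.76 RPKM in H&H 35 mesenchyme, against 13.7 and 13.5 RPKM in H&H 31 mesenchyme (log2 difference -0.63 ± 0.14, limma adjusted p = 0.00702). The choline dehydrogenase gene CHDH had 2.30 and 2.58 RPKM in H&H 35 epithelium, against 4.24 and 3.53 RPKM in H&H 31 epithelium (log2 difference -0.50 ± 0.13, limma adjusted p = 0.017).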

How the data were processed

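RNA-Seq libraries (single-end reads) came from mesenchyme and epithelium of dorsal skin at H&H 35 and H&H 31, with 2 libraries in each of 4 groups. The authors mapped trimmed reads to galGal4 with Partek Flow, and used Partek Genomics Suite after that. TopHat2 and Partek are named in the submitters' processing notes. Software versions, the gene annotation and the treatment of reads that map to several genes are not given in the sources used here. The deposited values are RPKM computed by the authors for 14642 genes, with no further scaling between libraries stated, and a deposited number of alignments for each library, the other value read from the table. The genes reported here and those of the lists were each checked for this unit, while every gene of the table entered the fits. RPKM hold no read count per gene, so precision was read from the distance between the 2 libraries of a group. In the tests this distance was pooled over the 4 groups and moderated by the spread of other genes.

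Values were taken as log2(RPKM + 1), and 11155 genes that reached an RPKM of 1 in 2 or more libraries were tested. Differences on this scale understate the change of low genes. With limma 3.58.1 (R 4.3.3), a mean was fitted for each of the 4 groups (eBayes with trend, no batch term, as the study's methods name none). The 5 contrasts were the stage change (H&H 35 minus H&H 31) of mesenchyme and of epithelium, the tissue difference (mesenchyme minus epithelium) of H&H 31 and of H&H 35, and the interaction of stage and tissue. p was two-sided and adjusted by Benjamini and Hochberg over all genes tested, with a threshold of 0.05. The script was tested on simulated data.

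The genes, lists and alternatives were chosen with earlier results of these data known. Genes given with values are the up to 5 largest rises and falls of each comparison among those past the threshold, if their mean RPKM reached 2 and the libraries of the groups did not overlap, the highest and lowest gene of each complex, isoforms, catalytic or redox subunits, and up to 2 genes of each other list per stage comparison. Genes named without values in every library were added to complete a count, and SLC25A6 was added beside SLC25A4 as a second ADP/ATP carrier. PPARGC1A was added beside PPARGC1B and PPRC1.

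The labels give the replicate number as a batch without saying what a batch shares. The main fit had no term for it, and only alternatives used it as a block. The deviations of batch I from its group mean were correlated between groups, first over all genes. Between the tissues r was 0.32 at H&H 35 and 0.19 at H&H 31. For the other pairs of groups it lay between -0.18 and 0.04. Over the respiratory chain and ATP synthase genes alone, r between the tissues was 0.60 at H&H 35 and 0.52 at H&H 31. For the other pairs of groups it then lay between -0.47 and 0.01. The main tests between the tissues and of the interaction do not use this link within a stage. The block within each stage does, and its counts are given below. Alternatives were a pseudocount of 0.1 or 0.5, no filter or a minimum RPKM of 5, scaling to an equal sum, median-ratio scaling, quantile normalization, a block for the batch number over all libraries or within each stage, no trend, only the libraries compared, and leaving out each library.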

Additional observations from a re-analysis of the deposited data

Results flagged for a closer look

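For 20 of the genes given with values, the stage change differed between the tissues by the interaction term of limma (the change in mesenchyme less the change in epithelium, on the scale of log2(RPKM + 1)). In complex I the differences were -0.56 for NDUFA4, -0.69 for NDUFA5, -0.54 for NDUFB1, -0.93 for NDUFB6, -0.40 for NDUFS1 and -0.63 for NDUFS6. In complex II they were -0.45 for SDHA and -0.70 for SDHB. In complex III they were -0.63 for UQCR10, -1.03 for UQCR11, -0.73 for UQCRH and -0.78 for UQCRQ. In complex IV they were -0.44 for COX4I1, -0.81 for COX5A and -0.70 for COX6A1. In complex V they were -0.84 for ATP5B, -0.89 for ATP5C1, -1.22 for ATP5G1, -0.81 for ATP5G3 and, in the other direction, 0.47 for ATP5J2. With 2 libraries in each group no library could be tested for standing apart.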

How the results depend on the processing

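Leaving out 1 library leaves its group with 1 library that is assumed to vary like the others. Leaving out each library in turn gave 7 to 22 genes for the stage change in epithelium (17 with all libraries), 6 to 31 for that in mesenchyme (21), 3 to 13 between the tissues at H&H 31 (10), 31 to 47 at H&H 35 (42) and 18 to 37 for the interaction (31). Fitting only the libraries compared gave 11 genes for the stage change in epithelium and 19 at H&H 31. Scaling to an equal sum gave 16 at H&H 31, and quantile normalization gave 17 for the interaction. The replicate block for the batch number gave 17 genes in epithelium, 25 in mesenchyme, 12 at H&H 31, 42 at H&H 35 and 31 for the interaction, and the block within each stage 23 at H&H 31, 48 at H&H 35 and 43 for the interaction. The calls lost under the block over all libraries were 1 in epithelium (NDUFS4), 1 at H&H 31 (NDUFS4) and 1 for the interaction (NDUFS7). The median log2 difference of the 53 genes kept its sign under every alternative, from 0.07 to 0.36 for the stage change in epithelium, from -0.41 to -0.15 for that in mesenchyme, from -0.12 to -0.01 at H&H 31, from -0.67 to -0.34 at H&H 35 and from -0.68 to -0.25 for the interaction. The cause of these changes was not tested. For the 30 genes given with values, over 5 comparisons and the alternatives, 2417 of 2760 estimates kept their direction and side of the threshold. A further 90 came to pass it, 202 no longer passed it, and 51 changed sign without passing it in either fit. Low read counts could not be judged, since RPKM hold none.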
